A study of Mus musculus with 42 samples.

Results

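The response of the liver to a high fat diet in mice that lack ChemR23 was read from 14 of the 42 liver RNA libraries of the study, 7 from knockout (KO) obese and 7 from KO lean mice. These mice were chosen by their labels (genotype ChemR23 knockout, high fat or control diet, vehicle injection) and by a deposited table that holds these 14 mice and no others. All 14 were male C57BL/6J mice in which Cmklr1, the gene of ChemR23, had been disrupted by CRISPR/Cas9 genome editing, with no restriction to a tissue. From 6 weeks of age they were fed lard-based diets for 15 weeks, with 60% of kilocalories from fat in KO obese mice and 10% in KO lean mice. Both groups also received intraperitoneal vehicle (ethanol in PBS) on 4 consecutive days, and livers were taken on day 5 after a fast of at least 4 hours. Whole liver was sequenced, so each value is a mixture over all cell types of the organ. Wild type (WT) littermates on the same diets with the same vehicle, 7 obese and 7 lean, are used only where a diet effect is set beside its WT counterpart.

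ChemR23 is a G-protein coupled receptor for resolvin E1, a lipid mediator made from eicosapentaenoic acid, and for the adipokine chemerin, and it is found on macrophages and other cells. In the liver, dietary fat is taken up by hepatocytes, which desaturate, elongate, store, oxidise or export it. Genes of desaturation are driven by insulin and SREBP-1c and those of fatty acid oxidation by the fatty acid sensor PPARα. Obesity is also known to change hepatic drug metabolism, sex-biased genes, acute phase proteins and the macrophages of the liver, the Kupffer cells.

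The 14 libraries held 15987004 to 43816949 reads over the listed genes, with medians of 25483612 (lean) and 23388074 (obese). Albumin (Alb) was present at 496271 to 784930.0 (median 658790.0) normalized counts in KO lean mice and 563603 to 809012 (median 649062) in KO obese mice, and Ttr, another plasma protein of hepatocytes, at 54014 to 91884 and 64636 to 95875. Both hepatocyte markers were thus high in every mouse, as the label whole liver implies. Cmklr1 was at 0.363 to 0.811 CPM (reads scaled by library total) in KO lean mice and 0.188 to 1.12 in KO obese mice, against 1.58 to 4.81 in WT lean and 1.35 to 5.28 in WT obese mice, without overlap between genotypes. The first principal component (25.8% of the variance) placed all 7 KO obese mice above 0 and 6 of 7 KO lean mice below it. The exception was the lean mouse 20R (6.86), which stood apart from the other lean mice (-48.3 to -20.8). The second component (20.7%) followed the number that opens the identifiers, whose meaning the labels do not give: it was positive in numbers 9, 10 and 14 and negative in 20, 23 and 31, except for mouse 31R. Each number occurs in 1 diet group only (9, 14 and 20 in lean, 10, 23 and 31 in obese mice), so the numbers and the diet cannot be told apart by a fixed term, and counts with the number as a random block are given where they move a list's count by over 1.5 times.

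**Figure D1:**
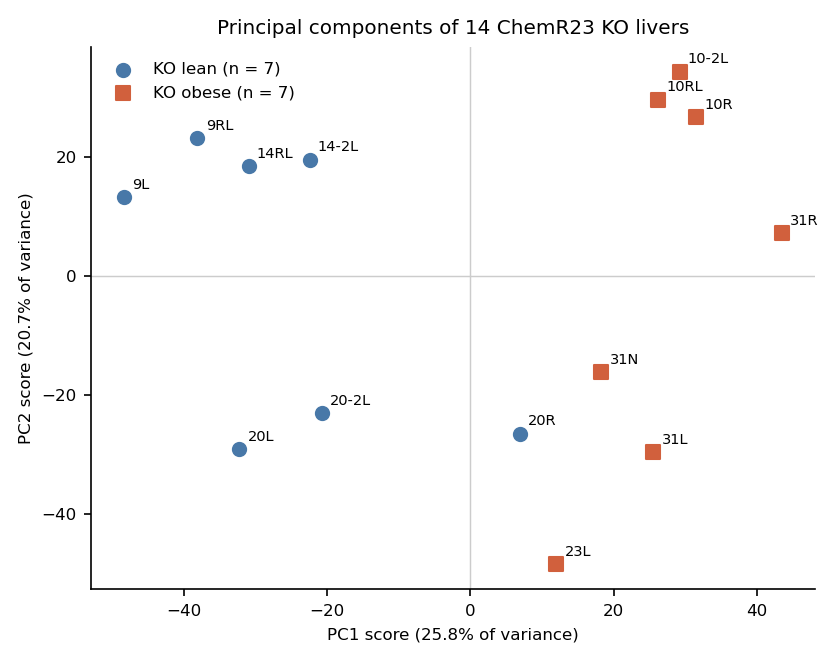
Scores of the 14 KO livers on the first (x axis, 25.8% of variance) and second (y axis, 20.7%) principal components of log2(normalized count + 1), 1 point per mouse, coloured by diet and labelled with the mouse identifier. Lean mice lie to the left and obese mice to the right, except the lean mouse 20R at 6.86.

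Values were compared as log2(normalized count + 1) with limma over 14213 genes. Here a gene is called higher or lower in KO obese mice where its change exceeded 1.5-fold and its Benjamini-Hochberg (BH) adjusted p was under 0.1, and every log2 fold change (log2FC) is KO obese minus KO lean on that log2 scale. Of the genes tested, 706 (4.97%) were called higher and 770 (5.42%) lower, 1476 in all (10.4%), with a median change of 1.73-fold in both directions. Counts within the gene lists below are to be read beside these shares. Lists and members were chosen with earlier results of these data known, so a list's higher share may come partly from that choice. More than 2-fold changes were seen in 207 genes called higher and 186 called lower. The 7 obese and 7 lean mice did not overlap in 298 genes (2.1%), of which 187 were called. Scaling all libraries to equal totals moved the median log2FC of all genes from -0.0021 to 0.14 and the split to 1324 higher and 351 lower, so directions are relative to the middle of all genes. When the opening numbers of the identifiers entered as a random block, 750 genes were called, 345 higher and 405 lower.

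**Figure D2:**
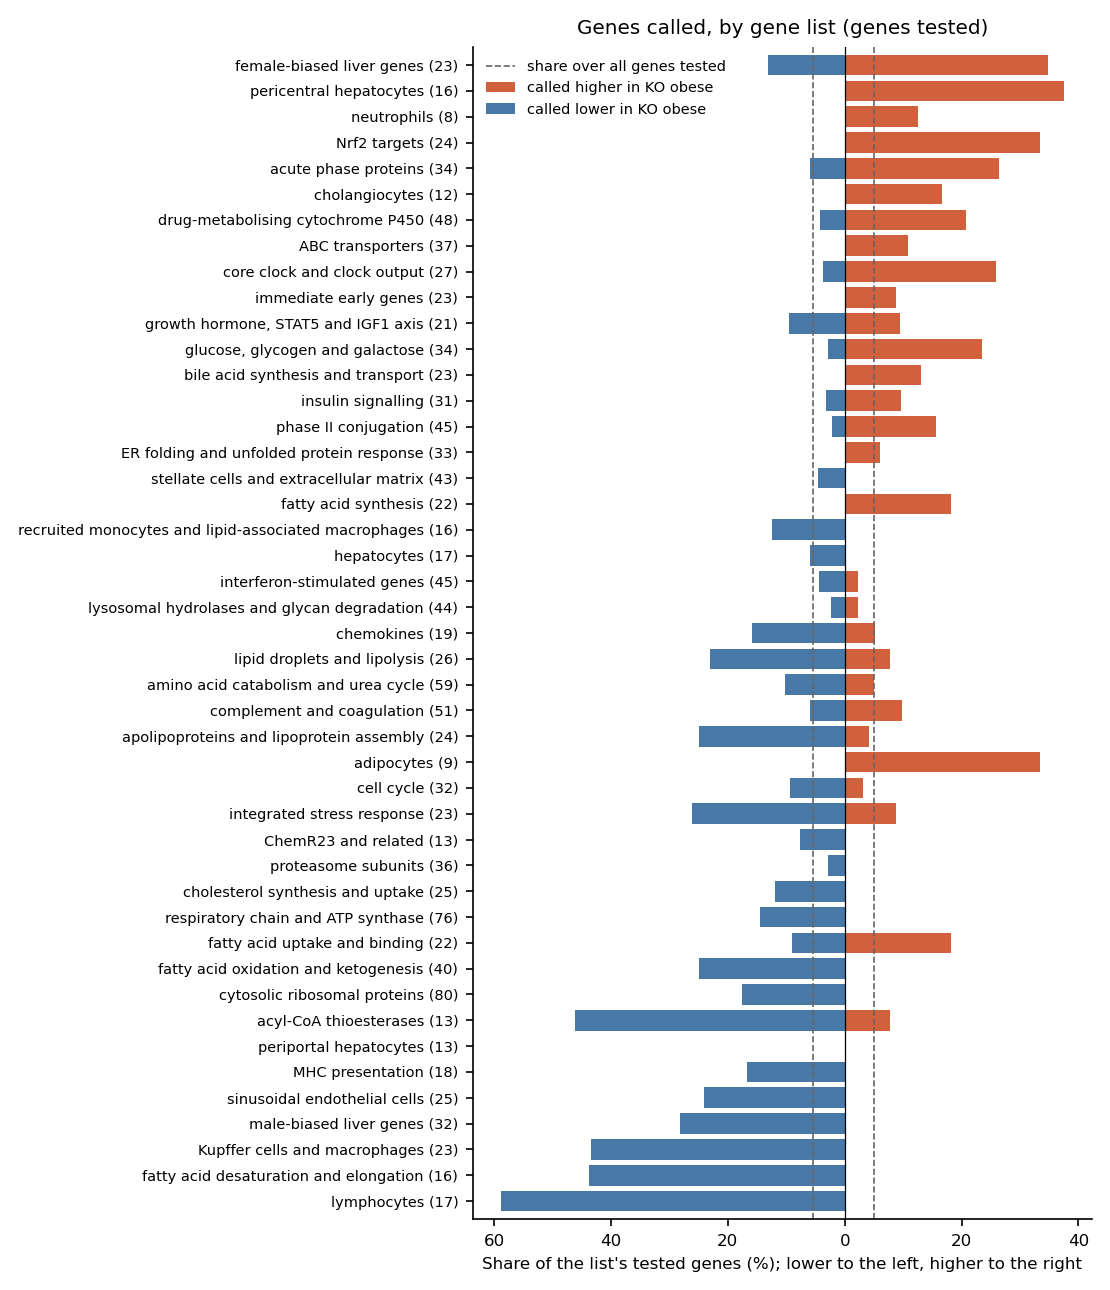
Share of the tested genes of each gene list (number tested in brackets) called higher (bars to the right) or called lower (bars to the left) in KO obese against KO lean mice, in percent, for lists with at least 8 tested genes. Dashed lines mark the shares over all genes tested (4.97% higher, 5.42% lower). Lists of lymphocyte markers, thioesterases, desaturation and elongation, and Kupffer cell markers reach farthest to the left, and pericentral markers, female-biased genes, adipocyte markers and Nrf2 targets farthest to the right.

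Genes that make unsaturated and long chain fatty acids were lower in KO obese mice. Of 16 tested genes of desaturation and elongation, 7 were called lower and 0 higher, with a median log2FC of -0.67. Scd1, which places the first double bond into palmitate and stearate, was at 341107 to 1103920.0 (median 776475) normalized counts in KO lean mice and 41336 to 353565 (median 159708) in KO obese mice. In each group 1 mouse lay within the range of the other. The log2FC was -2.25 (SE 0.43, adjusted p = 0.00591), a 4.74-fold lower level. Elovl2, which elongates polyunsaturated fatty acids, was at 36967 to 49800.5 (median 42006) in lean and 17210.2 to 27763 (median 21397) in obese mice, with no overlap between diets and a log2FC of -0.96 (SE 0.14, adjusted p = 0.00202). Elovl5, which acts on the same family of fatty acids, showed a log2FC of -0.89 (SE 0.18, adjusted p = 0.00645), and Fads2, the first desaturase of polyunsaturated fatty acids, of -0.72 (SE 0.19, adjusted p = 0.0218). Elovl3 showed a log2FC of -1.71 (SE 0.35, adjusted p = 0.00747). Fads1 (9985 to 21284 in lean, 7218 to 18825 in obese mice, adjusted p = 0.262) and Elovl6 (3078 to 10971 and 1712 to 7518, adjusted p = 0.246) did not pass. The block left 6 of the 7 calls, and equal totals left 5.

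Of 22 tested genes of fatty acid synthesis 4 were called higher in KO obese mice and 0 lower, with a median log2FC of 0.055 against -0.0021 over all genes. Thrsp, a lipogenic protein known as Spot 14, was at 862 to 17604 (median 3567) normalized counts in lean and 7494 to 47712 (median 37454) in obese mice, and 4 obese mice, 23L and the 3 mice of number 31, lay above every lean mouse. Its log2FC was 2.38 (SE 0.67, adjusted p = 0.0281). Mid1ip1, the relative of Thrsp that binds acetyl-CoA carboxylase, changed by 1.26 (SE 0.29, adjusted p = 0.014). Pklr, the pyruvate kinase of the liver, was 2.29-fold higher, log2 SE 0.30, adjusted p = 0.0188. Aacs, which activates acetoacetate for lipid synthesis, changed by 2.04 (SE 0.53, adjusted p = 0.0217). The fatty acid synthase Fasn (1369.7 to 4867 in lean, 1828 to 14806 in obese mice, adjusted p = 0.206), the citrate lyase Acly (1413 to 4559 and 1562 to 7443, adjusted p = 0.387) and the regulator Srebf1 (899 to 4914 and 2746 to 7269.9, adjusted p = 0.154) did not pass. Without the 3 obese mice of number 31, 0 genes of the list were called higher and 1 lower.

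Fatty acid oxidation showed genes called lower and none called higher. Of 40 tested genes of oxidation and ketogenesis 10 were called lower, with a median of -0.26. Ehhadh, the bifunctional enzyme of peroxisomal β-oxidation, was at 12288 to 95970.3 (median 25070.1) normalized counts in lean and 6486 to 10657 (median 8484) in obese mice. Every obese mouse was below every lean mouse, the lean mice spread widely, and the log2FC was -1.81 (SE 0.38, adjusted p = 0.0084). Mlycd, which breaks down malonyl-CoA, the inhibitor of fatty acid entry into mitochondria, was at 5590.1 to 11131 (median 10185) in lean and 3574 to 5172 (median 4274) in obese mice without overlap (log2FC -1.07, SE 0.15, adjusted p = 0.00187). Slc22a5, the carnitine transporter, changed by -0.93 (SE 0.19, adjusted p = 0.00686). Fgf21, the fasting hormone of the liver, was at 228 to 992 in lean and 97.6 to 303 in obese mice (log2FC -1.39, SE 0.30, adjusted p = 0.009). The ω-hydroxylase Cyp4a31 changed by -2.40 (SE 0.53, adjusted p = 0.0109) and Cyp4a14 by -1.95 (SE 0.69, adjusted p = 0.065), although reads of the near-identical Cyp4a genes may have been split between them, and the call of Cyp4a14 was lost with the block (adjusted p = 0.11) and without any 1 of 5 mice (14RL, 9L, 9RL, 31N or 31R, with a log2FC of -1.86 to -1.61). Of the 10 calls, 9 were left with equal totals or the block, and 6 without the mice of number 31.

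Some known control points of the pathway did not pass. Cpt1a, the carnitine palmitoyltransferase of the mitochondrial surface, was at 10824 to 21526 (median 16756) normalized counts in lean and 12396 to 17819 (median 15757) in obese mice (adjusted p = 0.761). Ppara itself was at 14023 to 25089.6 in lean and 14507 to 20612 in obese mice (adjusted p = 0.745). Calls within this list were thus found in some of its members, while the diets overlapped in Cpt1a and Ppara.

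Acyl-CoA thioesterases, which release free fatty acids from coenzyme A, split by member. Of 13 tested, 6 were called lower and 1 higher. Acot1 was at 2428 to 9309 (median 5136) normalized counts in lean and 1037 to 2473 (median 1653) in obese mice, with 1 mouse of each group inside the range of the other (log2FC -1.53, SE 0.27, adjusted p = 0.0042). The peroxisomal Acot8 changed by -0.66 (SE 0.13, adjusted p = 0.0064). Acot1 to Acot5 are neighbouring, similar genes on chromosome 12, so their reads may have been shared. Acot11, called higher, was at 75.3 to 175 in lean and 216 to 515 in obese mice, with no overlap (log2FC 1.43, SE 0.20, adjusted p = 0.00193). With equal totals 3 of the 6 lower calls were left, with the block 4, and without the mice of number 31 or of number 9 there were 2.

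Lipid droplet genes changed in both directions, with 2 of 26 called higher and 6 lower (median -0.056, and 0.091 with equal totals). G0s2, the inhibitor of the lipase ATGL, lies on chromosome 1, 193272161 to 193273217 (GRCm38) and had the lowest adjusted p among all genes tested. It was at 19423 to 32496 (median 26174) normalized counts in KO lean mice and 5259 to 12073 (median 8015) in KO obese mice, each obese mouse below each lean one, with a log2FC of -1.76 (SE 0.18, adjusted p = 0.000312). The droplet coat protein Plin2 was at 12818 to 45879.8 (median 22315) in lean and 8979 to 15592 (median 12071) in obese mice, a change of -0.95 (SE 0.25, adjusted p = 0.0212). Plin5, which tethers droplets to mitochondria, changed by -1.19 (SE 0.29, adjusted p = 0.0171), and Lipa, the acid lipase of lysosomes, by -0.72 (SE 0.15, adjusted p = 0.00764). Plin4, a droplet coat protein of adipose tissue and muscle, was instead higher, at 281 to 1399 (median 671) in lean and 1093 to 4969 (median 2930.4) in obese mice (log2FC 2.02, SE 0.36, adjusted p = 0.00425). Ces1g, a carboxylesterase, was at 762 to 2094 in lean and 2579 to 3694 in obese mice without overlap (log2FC 1.33, SE 0.19, adjusted p = 0.00202). Pparg, an adipogenic nuclear receptor that also induces droplet genes, rose and was at 30.3 to 99.9 (median 64.6) in lean against 104 to 559 (median 307) in obese mice, again without overlap (log2FC 2.05, SE 0.37, adjusted p = 0.00444). Of the 6 lower calls the block left 4 and equal totals 3.

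Genes that take up and bind fatty acids also split. Of 22 tested, 4 were called higher and 2 lower. Cd36, a fatty acid translocase, was at 504 to 1624 (median 871) normalized counts in lean and 1048 to 6074 (median 2355) in obese mice, with 5 obese mice above every lean mouse (log2FC 1.46, SE 0.36, adjusted p = 0.0175). Acsm3, a medium-chain acyl-CoA synthetase, rose without overlap and was at 1036 to 1550.5 in lean against 1690.0 to 2372 in obese mice (log2FC 0.71, SE 0.11, adjusted p = 0.00233). Fabp5, the epidermal fatty acid binding protein, was at 179 to 829 (median 434) in lean and 22.5 to 159 (median 26.4) in obese mice, an 8.86-fold lower level with a log2FC of -3.15 (SE 0.47, adjusted p = 0.00203). The 5 lowest obese mice were far below the remaining obese mice, and all 7 were below the lean range. Fabp1, the main fatty acid binding protein of hepatocytes, changed by -1.02 (SE 0.26, adjusted p = 0.0188).

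Of 24 tested apolipoprotein and lipoprotein assembly genes 6 were called lower and 1 higher, with a median of -0.087, which became 0.060 with equal totals. Apom, the carrier of sphingosine-1-phosphate, was at 1248 to 2286 normalized counts in lean and 836 to 1422 in obese mice (log2FC -0.96, SE 0.15, adjusted p = 0.00316), and Apoa5, which promotes triglyceride clearance, changed by -0.73 (SE 0.17, adjusted p = 0.0132). The count of 6 fell to 3 without KO lean mouse 20L or without KO obese mouse 31R, and to 2 with the block. Cholesterol synthesis and uptake had 3 of 25 genes called lower and 0 higher, and the block left 1 of the 3. Of 23 bile acid genes 3 were called higher, and Cyp7a1, the rate-limiting enzyme of bile acid synthesis, did not pass (2210.4 to 9230.4 in lean, 3188 to 13309.6 in obese mice, adjusted p = 0.407).

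**Figure D3:**
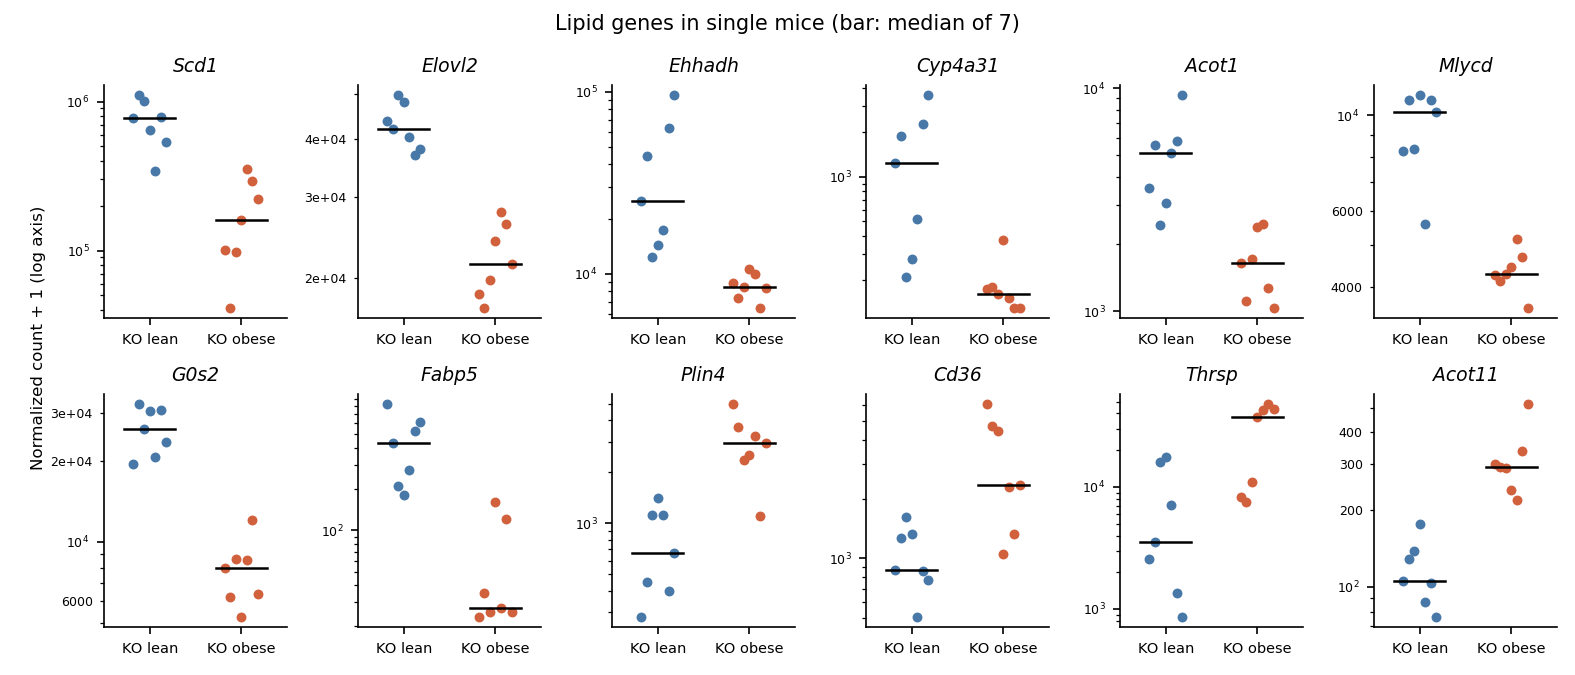
Normalized count + 1 (log axis, each panel with its own range) of 12 lipid genes in each KO lean (blue) and KO obese (red) mouse, with a bar at the median of 7 mice. Elovl2, Ehhadh, Mlycd, G0s2 and Fabp5 fell and Acot11 rose with no overlap between diets, while Scd1, Cyp4a31, Acot1, Plin4, Cd36 and Thrsp overlapped in at least 1 mouse.

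The cytochrome P450 genes of drug metabolism gave the largest increases. Of 48 tested, 10 were called higher and 2 lower, with a median log2FC of 0.23. Cyp2b9 (chromosome 7, 26173411 to 26210661) had 0 to 11.7 (median 2.38) normalized counts in KO lean mice and 28.2 to 4373 (median 1469) in KO obese mice. The obese mice spread over a wide range but all lay above the lean mice, and the log2FC of 7.64 (SE 0.98, adjusted p = 0.00154) was the largest of all genes called higher. Cyp2b10, the classical target of the nuclear receptor CAR, rose and was at 0 to 26.7 (median 2.9) in lean against 30 to 323 (median 113) in obese mice without overlap (log2FC 4.22, SE 0.65, adjusted p = 0.00255). Cyp2b13 reached at most 0.897 in lean mice and 0 to 224 (median 35.6) in obese mice, of which 5 lay above all lean mice. These 3 genes are close paralogs in 1 cluster of chromosome 7, so reads may be shared, and folds against lean levels near 0 depend on the pseudocount.

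Cyp2c37 rose and was at 1630.0 to 5541 (median 2599) normalized counts in lean against 5853 to 10211 (median 8187) in obese mice, with no overlap and a log2FC of 1.49 (SE 0.23, adjusted p = 0.00255). Nr1i3, which encodes CAR, rose and was at 2263 to 3178 (median 2685) in lean against 3570.5 to 5007 (median 3872) in obese mice, also with no overlap (log2FC 0.60, SE 0.10, adjusted p = 0.00388). Its change lay just above the fold threshold and fell below it without any 1 of 4 mice (20-2L, 20R, 10RL or 31N, with a log2FC of 0.54 to 0.58). Nr1i2, the related receptor PXR, was at 2108 to 4198 in lean and 1918 to 4402 in obese mice (adjusted p = 0.994), and Cyp3a11, its classical target, at 14437 to 69173 and 14369.8 to 34042 (adjusted p = 0.455). Nr1i3, Cyp2b9, Cyp2b10 and Cyp2b13 were called higher, while Nr1i2 and Cyp3a11 were not called. The genes of this list called lower were Cyp2c55 and Cyp2d34. A part of CAR or PXR in these calls was not tested. The block left 9 of the 10 higher calls and neither of the lower ones.

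Genes of the antioxidant factor Nrf2 were called in 1 direction, 8 of 24 higher and 0 lower (median 0.38). Nqo1, the quinone reductase used as a marker of this pathway, was at 52.9 to 98.2 (median 74.4) normalized counts in lean and 102 to 205 (median 171) in obese mice without overlap (log2FC 1.09, SE 0.18, adjusted p = 0.00327). Cat, the catalase of peroxisomes, rose and was at 25208 to 41593 in lean against 42148 to 60445 in obese mice, likewise without overlap (log2FC 0.69, SE 0.15, adjusted p = 0.00956). Aox1, an aldehyde oxidase, changed by 1.10 (SE 0.19, adjusted p = 0.00348). Gclc, the rate-limiting enzyme of glutathione synthesis, changed by 0.67 (SE 0.19, adjusted p = 0.0315) and lost its call with the block (adjusted p = 0.114). Hmox1, the heme oxygenase, did not pass (352 to 940.3 in lean, 341 to 2731 in obese mice, adjusted p = 0.467). The block left 5 of the 8 calls, as did leaving out KO lean mouse 14RL or 9RL.

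ATP-binding cassette (ABC) transporters had 4 of 37 genes called higher (10.8%, against 4.97% of all genes) and 0 lower. The count of 4 became 12 with equal totals and 2 with the length and GC correction. Abcc3, which exports conjugates and bile acids to the blood, was at 683 to 2157 (median 1009) normalized counts in lean and 1784 to 6544 (median 4347) in obese mice, 6 of which lay above every lean mouse (log2FC 1.77, SE 0.31, adjusted p = 0.00383). Abca5 rose and was at 98.9 to 159 in lean against 208 to 274 in obese mice without overlap (log2FC 0.74, SE 0.12, adjusted p = 0.00322). Abcb1a, the drug efflux pump P-glycoprotein, changed by 1.29 (SE 0.25, adjusted p = 0.00637). Of 45 phase II conjugation genes 7 were called higher and 1 lower, but only 2 higher calls were left with the block, 3 without KO lean mouse 9L, and 4 without any 1 of 9RL, 10RL and 31R.

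Sex-biased liver genes follow the pulse pattern of growth hormone, and in these male mice male-biased genes were called lower and most of the called female-biased genes higher. Of 32 tested male-biased genes 9 were called lower and 0 higher (median -0.51). Of 23 female-biased genes 8 were called higher and 3 lower (median 0.58), and this list shares Cyp2b9, Cyp2b13 and Cyp2a4 with the P450 list. Cyp4a12b, a male-specific ω-hydroxylase, was at 1015 to 2204 (median 1507) normalized counts in lean and 105 to 862 (median 503) in obese mice, with no overlap (log2FC -1.96, SE 0.38, adjusted p = 0.00601). Hsd3b5, a male-specific steroid reductase, was at 2514 to 8525 (median 6119) in lean and 7.72 to 5989 (median 1673) in obese mice. The obese mice spread from near 0 to the lean range, and the log2FC of -3.15 (SE 1.08, adjusted p = 0.0579) lost its call with the block (adjusted p = 0.149) and without KO lean mouse 9L or KO obese mouse 10R (log2FC of -3.05 and -2.76). The same spread was seen in Moxd1, which had the largest fall of all called genes (-3.60, SE 1.44, adjusted p = 0.098) but an adjusted p of 0.255 with the block, and its call was lost without any 1 of 9 mice (log2FC of -3.45 to -3.06). Mup20, a urinary protein of male mice whose reads may be shared with other Mup genes, changed by -1.23 (SE 0.39, adjusted p = 0.0455), with an adjusted p of 0.155 under the block. With the block 4 of the 9 male-biased genes were called.

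On the female-biased side, Hao2, a peroxisomal oxidase, was at 0 to 2.97 (median 0.978) normalized counts in lean and 1.76 to 94.3 (median 25.8) in obese mice. The lean mice had 0 to a few counts and 6 obese mice lay above them (log2FC 3.69, SE 0.68, adjusted p = 0.00481). Tox, a nuclear factor, was at 71.4 to 165 (median 90.6) in lean and 139 to 314 (median 220.4) in obese mice (log2FC 1.13, SE 0.19, adjusted p = 0.00327), and Atp6v0d2, a subunit of the vacuolar proton pump, changed by 1.41 (SE 0.32, adjusted p = 0.0118). In the growth hormone axis itself 2 of 21 genes were called higher and 2 lower (9.52% each, against 4.97% and 5.42% of all genes). With the block 1 was called in each direction. Stat5a changed by 0.67 (SE 0.17, adjusted p = 0.0189) and fell under the fold threshold without KO obese mouse 23L (0.58). Its relative Stat5b was tested and not called. Igf1, a hepatic target of growth hormone, was at 27641 to 34898 in lean and 21670.1 to 40055 in obese mice (adjusted p = 0.713). Igfbp2, an IGF binding protein, was at 22356 to 46763 (median 28354) in lean and 5274 to 24278 (median 8563) in obese mice (log2FC -1.62, SE 0.29, adjusted p = 0.0042).

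Of 34 glucose and glycogen genes 8 were called higher and 1 lower, and with the block 6 and 1 (median 0.10). Slc2a2, the glucose transporter GLUT2 of hepatocytes, rose and was at 3063 to 6286 (median 4586) normalized counts in lean against 6720.2 to 11306 (median 8522) in obese mice with no overlap (log2FC 0.91, SE 0.16, adjusted p = 0.0042). Gbe1, the glycogen branching enzyme, rose and was at 1233 to 2451 in lean against 2508 to 3704 in obese mice, again with no overlap (log2FC 0.74, SE 0.16, adjusted p = 0.0103). Ppp1r3b, which targets protein phosphatase 1 to glycogen, changed by 1.34 (SE 0.39, adjusted p = 0.0314). Glycogen synthase Gys2 and the gluconeogenic Pck1 and G6pc did not pass (adjusted p = 0.749, 0.168 and 0.451). Without the mice of number 31, or of number 9, 3 of the 8 higher calls were left.

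In the insulin pathway 3 of 31 genes were called higher (9.68%) and 1 lower (3.23%), against 4.97% and 5.42% of all genes. Without the lean mouse 20R, 5 were called higher. Pik3r1, the regulatory subunit of PI3-kinase, was at 1314 to 2735 (median 1908) normalized counts in lean and 2618 to 5704 (median 4288) in obese mice (log2FC 1.07, SE 0.19, adjusted p = 0.0042), and it was the 1 gene of this list still called with the block (adjusted p = 0.0237). Outside the list, Lepr, the leptin receptor, was at 1541 to 3853 (median 2290.3) in lean and 95 to 1468 (median 183) in obese mice. No obese mouse reached the lean range, and the log2FC was -3.01 (SE 0.50, adjusted p = 0.00322), an 8.07-fold lower level. Kiss1, the gene of the peptide kisspeptin, was at 47.5 to 158 (median 111) in lean and 20.7 to 42.3 (median 23) in obese mice (log2FC -1.81, SE 0.25, adjusted p = 0.00187). Insr (2798 to 5816 in lean, 4817 to 6552 in obese mice, adjusted p = 0.115) and Irs2 (333 to 1246 and 334 to 1198, adjusted p = 0.944) did not pass.

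**Figure D4:**
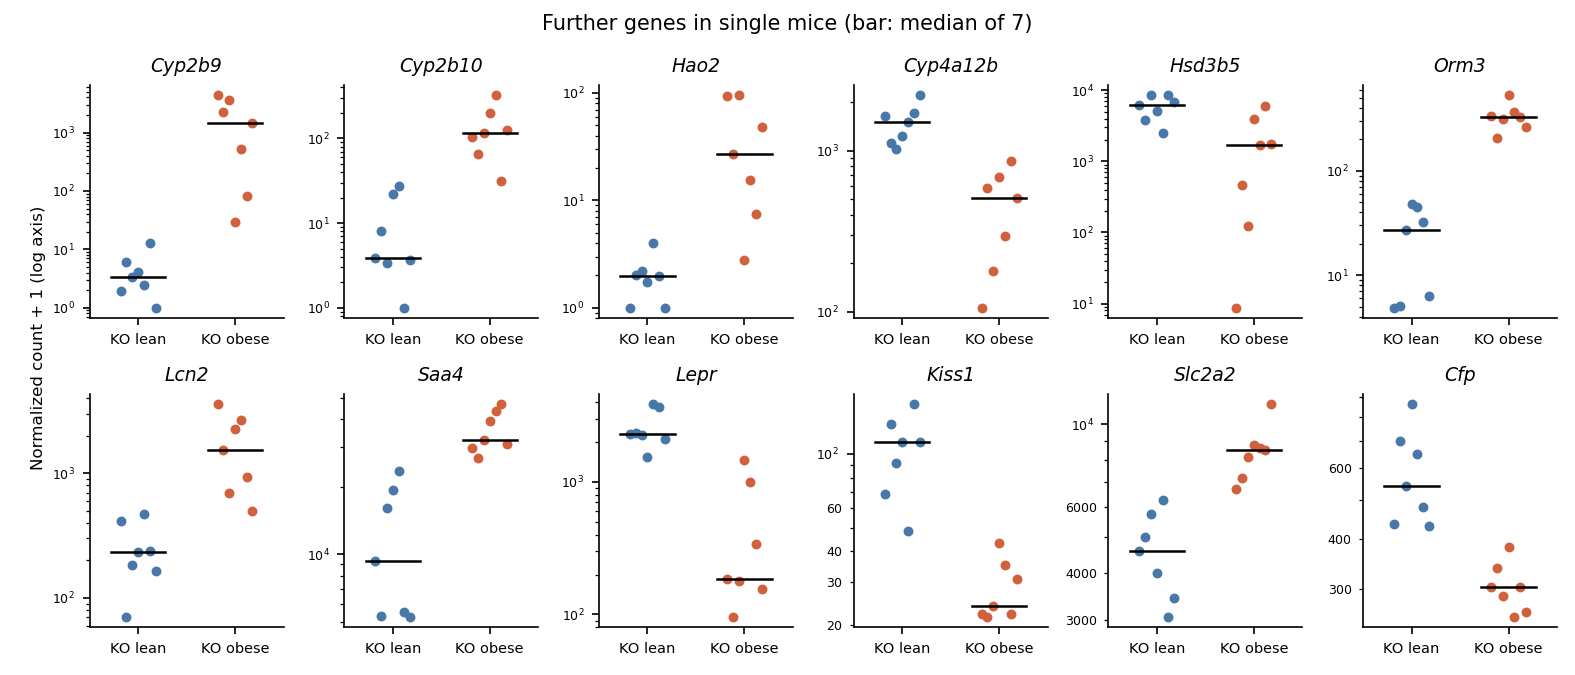
Normalized count + 1 (log axis, each panel with its own range) of 12 further genes in each KO lean (blue) and KO obese (red) mouse, with a bar at the median of 7 mice. Cyp2b9, Cyp2b10, Orm3, Lcn2, Saa4 and Slc2a2 rose and Cyp4a12b, Lepr, Kiss1 and Cfp fell with no overlap, while Hao2 and Hsd3b5 overlapped.

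Amino acid catabolism had 6 of 59 genes called lower (10.2%) and 3 higher (5.08%), against 5.42% and 4.97% of all genes. The median was -0.057, and 0.090 with equal totals. Agxt, which detoxifies glyoxylate, was at 3823 to 16111 (median 6374) normalized counts in lean and 2354 to 3601 (median 2697) in obese mice without overlap (log2FC -1.23, SE 0.23, adjusted p = 0.00558). Acmsd, which steers tryptophan away from NAD synthesis, changed by -1.21 (SE 0.26, adjusted p = 0.0087). Uroc1, of histidine breakdown, was higher without overlap, at 4177 to 6296 in lean and 6995 to 9675 in obese mice (log2FC 0.62, SE 0.11, adjusted p = 0.00478), but fell under the fold threshold without 9L, 9RL or 31R (0.57 to 0.58). The block left 3 of the 6 lower calls, equal totals gave 8 higher and 5 lower, and leaving out KO obese mouse 23L raised the lower calls to 12. Of 23 genes of the integrated stress response 6 were called lower and 2 higher, the stress factor Atf5 among the lower ones (log2FC -1.14, SE 0.26, adjusted p = 0.0117), and 3 lower calls and 0 higher ones were left with the block.

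Cytosolic ribosomal proteins had 14 of 80 genes called lower and 0 higher, and the respiratory chain and ATP synthase 11 of 76 and 0, with medians of -0.26 and -0.22. Rpl13a was at 1305 to 3133 normalized counts in lean and 593 to 1330.2 in obese mice (log2FC -1.25, SE 0.20, adjusted p = 0.00322), and Cox7a2, a subunit of cytochrome oxidase, at 2642 to 7119 and 1344 to 2967 (log2FC -1.15, SE 0.23, adjusted p = 0.00645). Many of these genes are short, and their counts depended on the scaling. Equal totals left 6 ribosomal and 4 respiratory genes called lower, and adjusting libraries by the length and GC content of genes left 7 (with 1 called higher) and 5. With the block 10 ribosomal and 4 respiratory genes were called lower. Leaving out KO obese mouse 31R left 6 respiratory genes, and leaving out KO lean mouse 20-2L left 7.

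Clock genes had 7 of 27 members called higher and 1 lower (median 0.20). Hlf, a PAR bZIP factor that acts on D-box elements, rose and was at 1458 to 2102 (median 1732) normalized counts in lean against 2558 to 3485 (median 2870.3) in obese mice, with no overlap (log2FC 0.72, SE 0.11, adjusted p = 0.00255). Per2, a repressor of the core loop, was at 282 to 1244 (median 509) in lean and 977 to 1898 (median 1342) in obese mice (log2FC 1.31, SE 0.30, adjusted p = 0.0133), and Per3 at 187 to 983 (median 491) and 455 to 1416 (median 1057) (log2FC 1.11, SE 0.32, adjusted p = 0.0305). Npas2, the partner of BMAL1, changed by -1.47 (SE 0.57, adjusted p = 0.0901), with an adjusted p of 0.135 under the block. The call of Npas2 was lost without any 1 of 9 mice (log2FC of -1.52 to -1.16). Arntl (the gene of BMAL1), Nr1d1 and Dbp did not pass (adjusted p = 0.824, 0.187 and 0.882). The calls depended on a few mice: without the 3 obese mice of number 31 there was no clock gene called (0 higher, 0 lower), and without KO obese mouse 31R there were 4 higher. The block gave 4 higher and 0 lower, and equal totals 10 and 0.

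Among the clock genes with a promoter window in RefSeq (22 of 27, from 250 bases before to 50 bases after the start site, GRCm38.p6), the letters TTATGTAA of the D-box, searched on both strands, occurred in 1, Per3. The window lies on the minus strand at chr4:151044616-151044915 and is shown because Per3 and Hlf were both called higher, with the 2 copies of the letters in capitals, 205 and 158 bases before the start site.
Per3 promoter: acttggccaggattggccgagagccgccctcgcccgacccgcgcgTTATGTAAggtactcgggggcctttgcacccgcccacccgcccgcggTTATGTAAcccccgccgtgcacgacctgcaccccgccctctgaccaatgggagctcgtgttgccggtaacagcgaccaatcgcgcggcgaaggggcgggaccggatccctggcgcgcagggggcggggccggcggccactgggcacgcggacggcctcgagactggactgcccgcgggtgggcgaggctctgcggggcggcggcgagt
Over all genes with such a window, 299 of 27025 (1.11%) held these letters. A match describes the sequence and no binding.

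Acute phase proteins, which hepatocytes secrete under cytokine signals, had 9 of 34 genes called higher and 2 lower (median 0.31). Orm3, an orosomucoid, rose and was at 3.87 to 47.6 (median 26.2) normalized counts in lean against 207 to 531 (median 330.4) in obese mice (log2FC 4.31, SE 0.51, adjusted p = 0.00126), though reads may be shared with Orm1 and Orm2. Lcn2, the iron-siderophore binding lipocalin, rose and was at 69.5 to 466 (median 230.3) in lean against 493 to 3579 (median 1531) in obese mice (log2FC 2.69, SE 0.45, adjusted p = 0.00348). Saa4, the constitutive serum amyloid A, rose and was at 5248 to 23451 (median 9318) in lean against 26803 to 46748 (median 32440.1) in obese mice (log2FC 1.80, SE 0.33, adjusted p = 0.00478). In all 3 genes each obese mouse lay above each lean mouse. Saa1, the inducible form, was at 482 to 12559.8 and 6541 to 33750.1 (log2FC 1.86, SE 0.57, adjusted p = 0.0389), and its call was lost with the block (adjusted p = 0.124). Apcs, serum amyloid P, went the other way (log2FC -1.48, SE 0.35, adjusted p = 0.0145). The block left 5 of the 9 higher calls.

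Lcn2 is also a neutrophil gene, so the other markers of these cells are given beside it. Their summed level, Lcn2 included, was 331 to 850 normalized counts in lean and 838 to 3898 in obese mice. Of 8 tested markers Lcn2 was the 1 called, and S100a8, an abundant neutrophil protein, was at 22.5 to 85.3 in lean and 12.4 to 321 in obese mice (adjusted p = 0.703). Ly6g, Camp, Ngp and Mpo were not analysed here. Their part in the result for Lcn2 was not tested.

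Complement and coagulation genes were called in both directions, 5 of 51 higher (9.80%) and 3 lower (5.88%), against 4.97% and 5.42% of all genes. The 5 became 3 without any 1 of 14RL, 20-2L, 20L, 10-2L and 31R. With the block 1 was called higher and 2 lower. Cfd, the adipokine adipsin, was at 8.8 to 76.1 (median 13.3) normalized counts in lean and 21.8 to 1738 (median 259) in obese mice, with 4 obese mice above all lean mice (log2FC 3.01, SE 0.88, adjusted p = 0.0328). With the block its adjusted p was 0.101, just outside the threshold. Of 9 tested adipocyte markers Cfd, Pparg and Car3 were called higher. At any size of change 4 were higher and 5 lower, with a median log2FC of -0.12. Fabp4 was at 74.2 to 587 in lean and 140.5 to 362 in obese mice (adjusted p = 0.696), and Adipoq, Lep, Retn and Plin1 were not analysed here. The summed level of the 10 listed markers was 71732 to 131745 normalized counts in lean and 101473 to 165828 in obese mice. Cfd (at most 1738) and Fabp4 (at most 587) made up little of this sum. The part of adipose tissue in the level of Cfd was not tested. Cfp, properdin of myeloid cells, was lower without overlap, at 429.6 to 862 (median 539) in lean and 255 to 379 (median 302) in obese mice (log2FC -0.91, SE 0.15, adjusted p = 0.00354).

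Markers of resident macrophages were lower in KO obese than in KO lean mice. Of 23 tested Kupffer cell and macrophage markers 10 were called lower and 0 higher, and 8 did not overlap between diets, against 2.1% of all genes. In bulk tissue, fewer cells of a type and less RNA per cell cannot be told apart. Wfdc17, a secreted protein of macrophages, was at 261 to 705 (median 382) normalized counts in lean and 113 to 205 (median 148) in obese mice (2.83-fold lower, log2 SE 0.20, adjusted p = 0.00187). Clec4f, a lectin found on Kupffer cells, was at 2091 to 6219.9 (median 2823) and 1242 to 1940.0 (median 1712) (log2FC -0.97, SE 0.20, adjusted p = 0.00686). Timd4, a receptor for dead cells on resident Kupffer cells, was at 131 to 227 (median 178) and 59.8 to 128 (median 96.7) (log2FC -0.90, SE 0.17, adjusted p = 0.00536). Vsig4, the complement receptor of these cells, was at 522 to 813 in lean and 305 to 459.6 in obese mice (log2FC -0.73, SE 0.12, adjusted p = 0.00348), C1qa was at 1731 to 3340.3 and 838 to 1434 (log2FC -0.89, SE 0.15, adjusted p = 0.00362) and Cd5l was at 2916 to 6946 and 1577 to 2319 (2.00-fold lower, log2 SE 0.18, adjusted p = 0.00478). In each of these 6 genes every obese mouse was below every lean mouse.

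Not all macrophage genes followed. Csf1r, the receptor that macrophages need, was at 639 to 845 in lean and 379.8 to 727 in obese mice (log2FC -0.40, adjusted p = 0.0516), under the fold threshold. Cd68, a lysosomal protein of macrophages, was at 61.6 to 167 and 68.6 to 252 (adjusted p = 0.837), and Adgre1 was not analysed here. The summed level of the 23 markers was 26368 to 40292 normalized counts in lean and 21274 to 27460 in obese mice. The block left 9 calls and equal totals 6, in both cases all lower. Of 16 tested markers of recruited monocytes and lipid-associated macrophages 2 were called lower and 0 higher, and Trem2 (1.48 to 34.7 in lean, 9.41 to 52.8 in obese mice, adjusted p = 0.455) and Gpnmb (1.19 to 7.42 and 1.32 to 214, adjusted p = 0.237) did not pass.

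Lymphocyte markers were called lower in 10 of 17 genes and higher in 0 (median -0.88). Ltb, lymphotoxin beta, was at 29.6 to 49.8 (median 36.7) normalized counts in lean and 10.6 to 24.5 (median 13.2) in obese mice, without overlap (log2FC -1.28, SE 0.21, adjusted p = 0.00322), and Ms4a1, the B cell antigen CD20, at 14.5 to 41.3 (median 26.6) and 1.32 to 13.4 (median 10), also without overlap (log2FC -1.68, SE 0.39, adjusted p = 0.0134). Il2rb, of T and NK cells, changed by -0.88 (SE 0.21, adjusted p = 0.0141). Cd3e, which defines T cells, was at 5.87 to 23.7 and 5.56 to 12.4 and did not pass (adjusted p = 0.778). The summed level of the 21 listed markers was only 288 to 414 in lean and 153 to 264 in obese mice, and several members had mice at 0. The 10 calls fell to 4 with the block or with equal totals, to 6 without KO lean mouse 20L and to 5 without KO lean mouse 9L. Of 19 chemokines 1 was called higher and 3 lower. Cxcl13, the chemokine that attracts B cells, was at 63.8 to 352 (median 85.1) in lean and 8.37 to 59.3 (median 23.8) in obese mice without overlap (log2FC -2.18, SE 0.46, adjusted p = 0.00825). Cxcl2, a chemokine for neutrophils, was higher without overlap at low levels, 0 to 4.83 in lean and 8.72 to 28.8 in obese mice (log2FC 2.39, SE 0.41, adjusted p = 0.0036).

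The remaining cell type lists gave smaller counts. Of 25 sinusoidal endothelial markers 6 were called lower (summed 11128 to 15346 normalized counts in lean and 7142 to 13395 in obese mice), 1 with the block, 0 with equal totals and 2 without KO obese mouse 10RL. Among 43 stellate cell and matrix genes 2 were called lower (1 with the block), and Col1a1, the main fibrillar collagen, was at 10.8 to 71.5 in lean and 12.9 to 359 in obese mice (adjusted p = 0.195). Cholangiocyte markers had 2 of 12 called higher, with 0 left under the block. Erythroid markers had 2 of 4 called lower (1 with the block), and all 4 were lower at any size of change. Their median log2FC was -1.48, against 0.099 in WT mice, and 0 passed for the difference between genotypes. Summed, they were at 1550 to 4365 in lean and 1369 to 2396 in obese mice. Of 3 tested acinar pancreas genes 0 were called. Of 17 general hepatocyte markers 1 was called, Cebpa, a transcription factor of hepatocytes, which was lower without overlap at 38391 to 73821 (median 52208) in lean and 25286 to 33647 (median 30885) in obese mice (log2FC -0.81, SE 0.16, adjusted p = 0.0064). Their summed level overlapped, at 1560230 to 2027940 in lean and 1398830 to 2170080 in obese mice.

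Genes of pericentral hepatocytes, which surround the central vein, were called higher in 6 of 16 and lower in 0 (median 0.54), and 6 were also called with the block. Glul, glutamine synthetase of the innermost pericentral cells, was at 12849.8 to 21140.2 (median 15623) normalized counts in lean and 19796 to 33086 (median 32149) in obese mice (log2FC 0.86, SE 0.15, adjusted p = 0.00425). Cyp2e1, the ethanol-metabolising P450 of this zone, was at 93215 to 180973 and 121773 to 194432 with a log2FC of 0.55 (SE 0.19, adjusted p = 0.0635), under the fold threshold. Of 13 periportal genes 0 were called (median -0.29), and Cyp2f2, a P450 of the periportal zone, did not pass (9257 to 15598 in lean, 13171 to 19950.5 in obese mice, adjusted p = 0.132). The difference between the zones was not tested.

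Several of the genes with the largest changes or the smallest adjusted p were in none of the lists. Themis, a signalling protein of developing T cells, was at 4.45 to 77 (median 16.6) normalized counts in lean and 33.5 to 1082 (median 543) in obese mice, with 6 obese mice above all lean mice (log2FC 3.80, SE 0.71, adjusted p = 0.005). The 21 listed lymphocyte markers together were at 153 to 264 in obese mice, and which cells held Themis was not tested. Tff3, a trefoil peptide of mucous epithelia, was at 98.7 to 359.6 (median 146) in lean and 8.72 to 131 (median 17.1) in obese mice (log2FC -2.69, SE 0.50, adjusted p = 0.005), and Chrna4, a subunit of the nicotinic acetylcholine receptor, was at 46 to 172 (median 109) and 3.1 to 83.5 (median 21.1) (log2FC -2.60, SE 0.59, adjusted p = 0.0121). In both, 6 obese mice were below every lean mouse. Fnip2, which binds folliculin and AMPK, rose and was at 347 to 1050.1 in lean against 1419 to 2201 in obese mice (log2FC 1.53, SE 0.19, adjusted p = 0.00154). Utp20, of ribosomal RNA processing, rose and was at 102 to 218 in lean against 309 to 518 in obese mice (log2FC 1.17, SE 0.16, adjusted p = 0.00187), and Klhdc3, a substrate receptor of a ubiquitin ligase, fell and was at 1252 to 1643 in lean against 814 to 1029.6 in obese mice (log2FC -0.64, SE 0.09, adjusted p = 0.00187). Diets did not overlap in the last 3 genes.

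Of 13 tested genes of ChemR23, chemerin, related receptors, enzymes of lipid mediators and Wscd2, 0 were called higher and 1 lower. Rarres2, which encodes chemerin, was at 2565 to 4606 (median 2901) normalized counts in lean and 3039.9 to 4407 (median 3627) in obese mice and did not pass (adjusted p = 0.394). Fpr2, a formyl peptide receptor of myeloid cells, was at 22.5 to 83.9 (median 34.5) and 10 to 30.2 (median 21.7), with a log2FC of -0.91 (SE 0.28, adjusted p = 0.0382) and an adjusted p of 0.145 under the block. Further lists gave few calls: 1 of 36 proteasome subunits lower, 2 of 33 genes of protein folding in the endoplasmic reticulum higher, 1 of 44 lysosomal enzymes in each direction, 1 of 45 interferon-stimulated genes higher and 2 lower, 3 of 18 genes of MHC presentation lower, 2 of 23 immediate early genes higher, and 1 of 32 cell cycle genes higher and 3 lower. Most of these depended on the processing: the 3 MHC calls fell to 0 with the block, with equal totals, with the length and GC correction and without the mice of number 31. With the block, 0 immediate early genes, 0 lower cell cycle genes, 1 folding gene, 1 lysosomal enzyme (lower) and 1 interferon-stimulated gene (lower) were left.

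The same diets in WT mice gave 532 called genes in their own table. Among the 13924 genes tested in both, 1443 were called in KO and 526 in WT mice, and 254 were called in both, which is 17.6% of the KO and 48.3% of the WT calls. The diet effects share no mouse, and their difference was tested for each gene with limma over 28 mice. At an adjusted p under 0.1 the difference passed for 1 gene (0.00718%), while 2553 had an unadjusted p under 0.05. The count depended on the method and on single mice. On the same 28 mice edgeR passed 1 gene, the block 0, DESeq2 926 and limma with library quality weights 2563, and limma passed 1847 without KO lean mouse 20R and 966 without WT obese mouse 22L. A gene called in KO and not in WT mice is not by that shown to differ between genotypes. The 1 gene of the unweighted limma test was Vwa1, a matrix protein, named after its value was seen. In KO mice Vwa1 overlapped between diets (25.2 to 48.3 in lean, 19.3 to 42 in obese mice, log2FC -0.19), in WT mice its log2FC was 1.47 (SE 0.22, adjusted p = 0.00189), and the difference was -1.65 (SE 0.30, adjusted p = 0.0803).

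Several lipid and P450 genes named above had a diet effect of the same sign in WT mice. The WT log2FC was -2.39 for Scd1 (difference 0.14, SE 0.53, adjusted p = 0.924), 6.28 for Cyp2b9 (difference 1.36, SE 1.38, adjusted p = 0.642) and -3.92 for Fabp5 (difference 0.77, SE 0.62, adjusted p = 0.542). It was -1.29 for G0s2, -1.08 for Elovl2, -1.48 for Ehhadh and -0.44 for Mlycd. WT mice had 9 of 16 desaturation and elongation genes called lower, and 1 of 13 thioesterases lower against 6 in KO mice. For immune markers the values lay further apart. In WT mice 1 of 23 Kupffer cell markers was called lower (median -0.022) and 0 lymphocyte markers in either direction (median 0.21), against medians of -0.58 and -0.88 in KO mice. Wfdc17 had a WT log2FC of -0.094 (SE 0.23, adjusted p = 0.87) and a difference of -1.41 (SE 0.32, adjusted p = 0.139), C1qa of 0.038 (SE 0.14, adjusted p = 0.923) and -0.92 (SE 0.21, adjusted p = 0.139), and Ltb of 0.21 (SE 0.30, adjusted p = 0.765) and -1.49 (SE 0.36, adjusted p = 0.141). Mean normalized counts in KO lean, KO obese, WT lean and WT obese mice were 443, 150, 141 and 129 for Wfdc17. They were 3338, 1616, 1452 and 1393 for Clec4f and 37.4, 15.3, 14.5 and 18.1 for Ltb. The KO lean mean was the highest in these genes, but not in Cd68 (119, 130, 79.9 and 75.1). KO and WT values were normalized separately, so levels compare only roughly between genotypes, and differences in level were not tested here. In its own comparison of lean mice, the paper reported Wfdc17 and the chemokine Cxcl13 as higher in KO than in WT.

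How many markers passed for the difference also depended on the method and on single mice. With limma over all 28 mice 0 of 23 Kupffer cell markers passed and 11 had an unadjusted p under 0.05, and the block also gave 0. DESeq2 on the same mice passed 8 of 23 (all genes 6.65%) and library quality weights 9 (all genes 18.4%). Without the lean mouse 20R 8 of 23 passed (34.8%), where 13.3% of all genes did, and without WT obese mouse 22L 8 passed, where 6.94% of all genes did. Of 15 lymphocyte markers 0 passed with limma, DESeq2 or the block, 6 with library quality weights, 3 without 20R and 4 without 22L. Called genes with the smallest p for the difference were Zscan2 (-0.99, adjusted p = 0.114), Cyb561d2 (-0.88, adjusted p = 0.114) and Sash1 (0.96, adjusted p = 0.132), and none of them passed with limma over 28 mice.

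**Figure D5:**
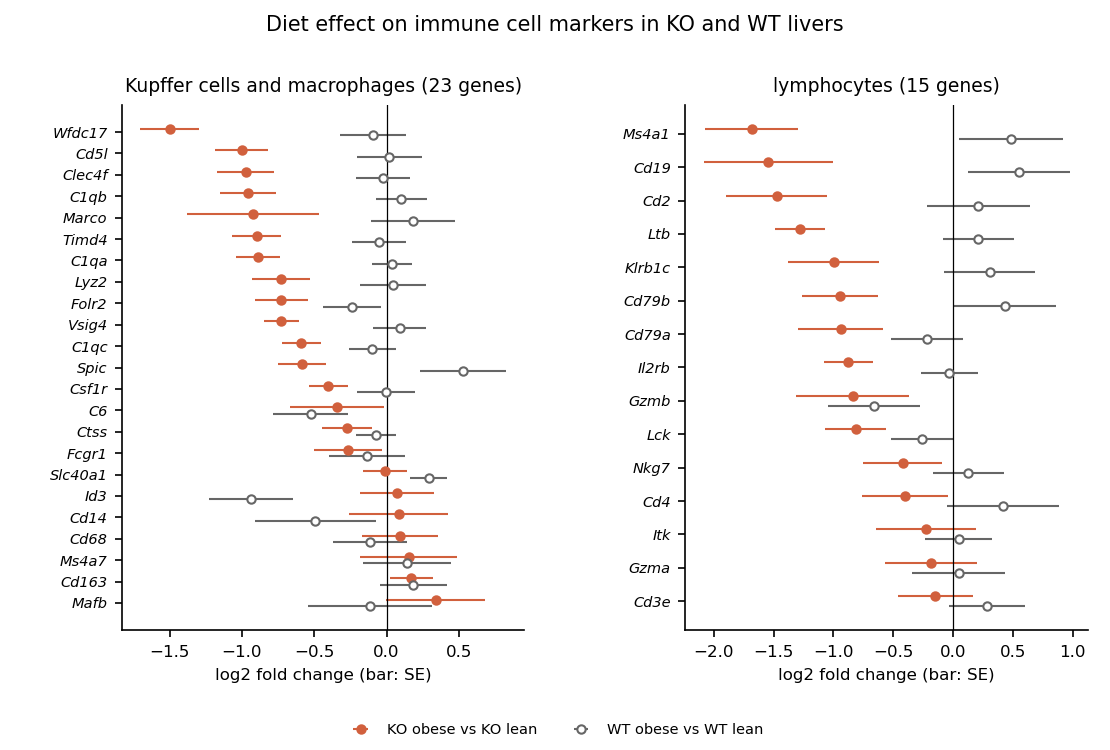
log2 fold change of the diet (x axis, bars show the SE) for Kupffer cell and macrophage markers (23 genes) and lymphocyte markers (15 genes tested in both tables), in KO obese against KO lean mice (filled red) and WT obese against WT lean mice (open grey). KO values lie below 0 for most genes and WT values around 0, and no marker passed the limma test of the difference between genotypes over 28 mice, while 9 of the Kupffer cell markers passed with library quality weights.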

How the data were processed

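Livers of 14 KO mice (7 obese, 7 lean) and, for the difference between genotypes, 14 WT mice were grouped by their labels. According to the methods of the study and the submitters' processing notes, RNA was prepared with a stranded kit, reads were aligned to mm10 with Bowtie2 and counted with featureCounts of the Subread package, and DESeq2 was used to normalize the counts. The authors deposited 1 table for each pair of groups, with normalized counts per mouse (read counts divided by a size factor, treated here as a signal) and columns of their own log2 fold changes and p-values, which were not used. All values came out as whole reads (100%, tolerance 0.1 read) when divided by the value of 1 read, and library depth was 15987004 to 43816949 reads.

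Values were taken as log2(normalized count + 1) for genes with a mean of at least 5 (14213 of 15162 listed) and compared with limma 3.58.1 in R 4.3.3 (lmFit, eBayes with trend, two-sided, BH). A call needed a change of more than 1.5-fold and an adjusted p below 0.1. The difference between genotypes was the contrast of both diet effects over 28 mice, each effect formed within its own table. Alternatives, including edgeR 4.0.16 and DESeq2 1.42.0 on the recovered reads, are given in the closing section. On simulated data with 200 changed genes, 89.5% were recovered for the KO comparison and 87.5% for the difference, with 12 and 16 unchanged genes called. The planted log2 changes were at least 1.5 in size, against a median of 0.78 for the KO calls tested in both genotypes. Simulated mice were independent, without the correlation within identifier numbers (estimated at 0.237). Recovery of smaller changes was not tested. Replicates were separate mice, and whether some shared a cage or litter is not given in the sources used here. Identical or duplicated libraries were looked for within each group and none was found (smallest chi-square per gene 43.4 over 84 pairs). Libraries of different groups were not compared in this way.

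Gene lists were written from general knowledge, and members and lists were chosen with earlier results of these data known. Genes were named by rule: key members of each list, up to 4 called members per direction with the smallest adjusted p, the 8 largest changes and 5 smallest adjusted p per direction, and the 3 called genes with the smallest p for the difference. Date-like names (22, altered by a spreadsheet) were not named. Coordinates were read from GENCODE M21 (GRCm38), which held 98.9% of the names. A few genes of the lists are not reported here by name.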

Additional observations from a re-analysis of the deposited data

Results flagged for a closer look

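For each of the 132 genes given a value, the highest and the lowest of the 7 mice in each group were compared with their nearest neighbour. In 21 of 264 groups 1 mouse stood apart by Dixon's criterion (the gap to the next mouse as a share of the range), in 20 of them the highest mouse. A chance rate of about 1 in 20 groups holds for normally distributed values. The criterion was applied to normalized counts without a log scale, so that rate may not hold here. In KO obese mouse 31R, Pklr (21718 normalized counts), Aacs (4349), Srebf1 (7270), Acot11 (514.5) and G6pc (37295) stood above the other 6 obese mice. Mouse 23L stood above the other obese mice in Cyp4a31 (372), Hmox1 (2731), Cyp2f2 (19951) and Tff3 (131). Mouse 10-2L stood out in Cd68 (252) and Gpnmb (214), mouse 31L in Arntl (107), and mouse 31N with a high Chrna4 (83.5) and a low Fgf21 (97.6). Among KO lean mice, 20R stood above the others in Ppara (25090), Hao2 (2.97) and Cyp2e1 (180973). Mouse 9RL held the 0.897 normalized counts of Cyp2b13, 9L the highest Agxt (16111), and 20L the highest Clec4f (6220) and Themis (77.0). Ranges are given above for some of these genes only, and medians for fewer. For Pklr, Aacs and G6pc the next highest obese mouse was at 11523, 2140 and 15323. No mouse was left out for these values.

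The diet effect on Vwa1 differed between genotypes by -1.65 on the log2 scale (adjusted p = 0.0803, limma over 28 mice). It was the 1 gene of 13924 for which this test passed.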

How the results depend on the processing

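Against 1476 called genes, 3422 passed without the fold threshold (1704 higher, 1718 lower) and 135 with an absolute log2FC above 1.5 (79 and 56). The identifier number as a random block gave 750 (345 and 405), leaving out the mice of number 31 gave 639 (266 and 373), and leaving out those of number 9 gave 909 (425 and 484). With equal totals 1324 genes were called higher and 351 lower. Leaving out 1 mouse at a time gave 1083 (without KO obese mouse 31R) to 2005 (without KO lean mouse 20R) calls, 482 to 966 higher and 590 to 1039 lower. The other alternatives, among them edgeR (1545), DESeq2 (1617) and the correction for length and GC (1190), stayed within 1.5 times the number called.

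The 1 gene passing for the difference between genotypes became 0 with a pseudocount of 4, equal totals, the length and GC correction, the block or an adjusted p under 0.05, and 7 with a mean of at least 20. Library quality weights gave 2563 genes and DESeq2 926, while edgeR gave 1. Leaving out 1 mouse at a time gave 0 to 1847, with 1847 without KO lean mouse 20R, 966 without WT obese mouse 22L and 20 without KO lean mouse 14-2L. The cause of these shifts was not tested.

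Of the 94 called genes with a printed fold change 0 changed direction in any alternative. The block ended 9 of these calls, equal totals 7 and the length and GC correction 6. Leaving out the mice of number 31 ended 21, those of number 9 ended 12 and those of number 10 ended 11. The threshold of an absolute log2FC above 1.5 ended 60. No paired analysis was possible because the labels give no replicate numbers shared between the groups, and the identifier numbers are nested within diet.

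Depth overlapped between the diets, and genes with few reads, such as Cyp2b13 and most lymphocyte markers, have folds that depend on the pseudocount. Numbers of mice per identifier number are 1 to 3, so results that rest on 1 number rest on few animals.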
